A study of Mus musculus with 27 samples.

Results

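The RNA of tumour-associated macrophages was compared between 3 libraries from Ogt-flox mice (WT) and 3 libraries from Ogt-flox Lyz2-cre mice (KO). These 6 libraries of the 27 samples in the study were taken by assay and genotype alone, and the 12939 genes that passed a filter on low counts were all tested. The macrophages came from tumours of MC38, a mouse colon adenocarcinoma cell line. Both genotypes carry floxed Ogt, and KO mice also carry cre at Lyz2, a lysozyme gene that is active in macrophages, monocytes and neutrophils. Ogt deletion, cre and the loss of Lyz2 RNA therefore go together in KO, and their effects cannot be told apart. The labels give neither age nor sex, and do not say which animals or pools the libraries came from, so that p-values measure the spread between these libraries, which may be technical.

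O-GlcNAc transferase, the product of Ogt, attaches a single N-acetylglucosamine to serines and threonines of nuclear, cytosolic and mitochondrial proteins, and the hydrolase OGA removes it. Transcription factors, RNA polymerase II and chromatin proteins are among its targets, and one of them, HCF-1, is also cut by the enzyme. Macrophages of a tumour arise mostly from blood monocytes. They sense their surroundings through pattern, lectin, Fc and cytokine receptors, clear dead cells, present antigen, and release factors that act on vessels, matrix and lymphocytes.

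Expression is given as CPM, counts relative to the TMM-normalised library size, as the mean ± SD of 3 libraries per genotype. A positive log2 fold change, given with its standard error (SE), is a higher level in KO. A gene was called at a Benjamini-Hochberg adjusted p below 0.05 in the edgeR quasi-likelihood test, and a second test asked whether a change exceeded 1.5-fold. The libraries held between 7032540 and 32406170 counts, and across genes their profiles correlated at 0.987 to 0.994 in pairs of the same genotype and at 0.974 to 0.979 in pairs of unlike genotype. Ogt (ENSMUSG00000034160.13, chromosome X, 101640060 to 101684351 in mm10) fell from 56.3 ± 6.24 to 34.7 ± 3.86 CPM and Lyz2 fell from 3882 ± 53.8 to 84 ± 1.52 CPM, while Egr2, the transcription factor that the study names, fell from 265 ± 9.54 to 143 ± 10.6 CPM. The Ogt count covers the whole gene, and the sources do not say which exons are floxed, so it does not measure how much intact Ogt remains.

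All 15 macrophage markers were tested. Their summed level without Lyz2 was 14886 to 15152 CPM in WT and 13251 to 13547 CPM in KO, far above that of any other cell type's list. Other cell types left a smaller trace that differed between the genotypes. The 20 tested markers of T and NK cells summed to 435 to 455.7 CPM in WT and 670 to 695 CPM in KO, and 16 of them were called higher and 2 lower. The 11 tested dendritic cell markers summed to 761 to 799 CPM in WT and 538 to 554 CPM in KO, with 2 called higher and 6 lower. Summed neutrophil markers (6 tested, 95 to 104 against 101 to 111 CPM) and monocyte markers (10 tested, 1819 to 1858 against 1898 to 1911 CPM) lay closer together, but each sum rests mostly on 1 gene. For neutrophils it was Csf3r (2207 raw counts in WT and 5655 in KO). Of these markers 1 was called higher and 3 lower, with a median log2 fold change of -1.02. For monocytes it was Nr4a1 (31731 raw counts in WT and 51088 in KO), the 1 marker called lower, while 6 were called higher (median 0.60). Raw counts in this paragraph are summed over the 3 libraries of a genotype and are not scaled for depth. The WT libraries held 7032540 to 12439582 counts and the KO libraries 11468556 to 32406170, so raw counts do not show a direction. The 8 tested B cell markers summed to 66.6 to 74.2 CPM in WT and 122 to 128 CPM in KO, with 3 called higher and 2 lower, and the 6 tested tumour and epithelial markers to 34.9 to 38.6 and 26.3 to 28.3 CPM, with 1 higher and 3 lower. The 8 tested fibroblast and endothelial markers summed to 78.7 to 87.2 CPM in WT and 103 to 117 CPM in KO, with 3 higher and none lower. No mast cell or erythroid marker passed the filter, though Cpa3 and Cma1 each had 0 counts in WT and 36 in KO. Of these lists Ngp (neutrophils), Esrp1 and Cldn4 (epithelium), Lum (fibroblasts) and Ms4a2 (mast cells) had no count in any library, while other members did, such as Csf3r, Cdh1 and Col3a1. In bulk RNA fewer cells of a type and less RNA per cell cannot be told apart.

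More than 1 gene in 3 differed between the genotypes, mostly by little. Of the genes tested, 4867 (37.6%) were called, 2422 (18.7%) higher and 2445 (18.9%) lower in KO. The counts given for each gene list below are to be set beside these shares. A change beyond 1.5-fold was called for 502 genes (3.88%), 285 higher (2.2%) and 217 lower (1.68%). At this threshold limma-voom called 172 higher and 180 lower, a filter of 5 CPM in 3 libraries left 180 and 179, and the DESeq2 test called 131 and 124. The libraries of the genotypes did not overlap for 6022 genes (46.5%). Most genes named below were chosen from called genes without such overlap, so that their separation is part of the choice and not a result. Among the called genes 3174 (65.2%) differed by less than 1.5-fold. The share of genes called rose with expression, from 15.2% of genes below 5 CPM to 90.4% of the 135 genes at 1000 CPM or more. In that most abundant band 99 genes were lower and 23 higher in KO, with a median log2 fold change of -0.24, against a median near 0 (-0.001) over all genes. Abundant genes that fell thus outnumbered those that rose, whereas the bands from 5 to 1000 CPM were close to balanced.

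**Figure D1:**
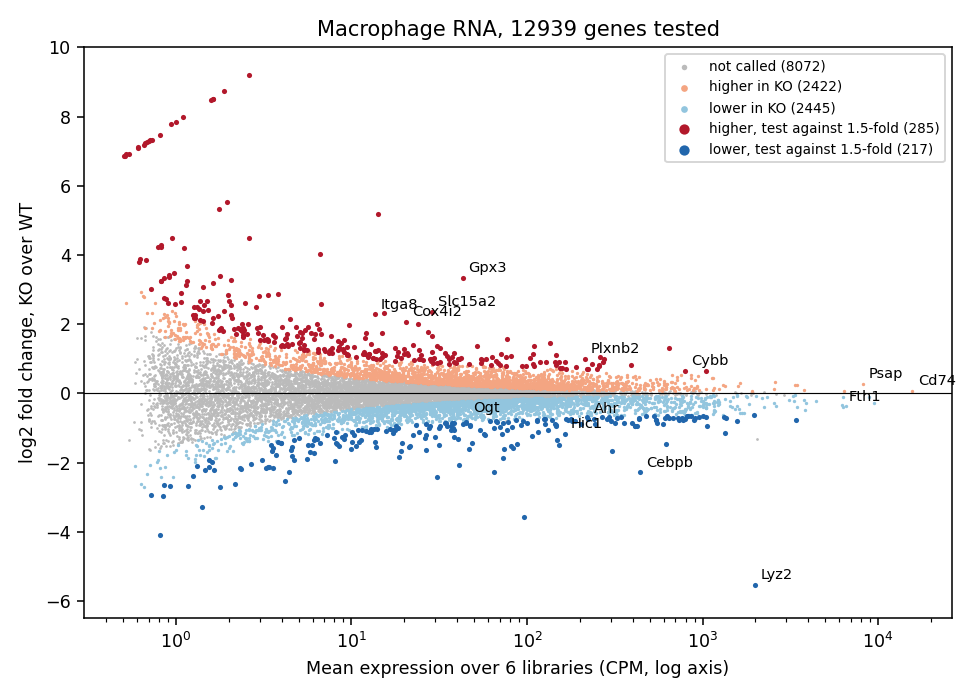
Log2 fold change of each tested gene, KO over WT (y axis), against its mean expression over the 6 libraries in CPM (x axis, log scale). Grey points are genes not called, light colours called genes, and dark colours the 285 higher and 217 lower genes of the test against 1.5-fold. Points in a line at the upper left are genes at 0 in every WT library, whose fitted value is no bound on the fold.

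The direction of a change went with the length of the gene. Among 9986 genes of at least 5 CPM, the shortest decile (exon length up to 1442 bases) held 11.0% higher and 36.3% lower genes, with a median log2 fold change of -0.19. The longest decile (9156 bases and more) held 29.9% higher and 15% lower genes, with a median of 0.09. The trend moves with genotype, so that a length effect of the RNA or the library preparation cannot be told apart from one of the mice. With a smooth length trend removed, 4686 genes were called (2484 higher and 2202 lower), and its effect on a result below is given where it changes a sign or moves a count by more than 1.5 times.

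**Figure D2:**
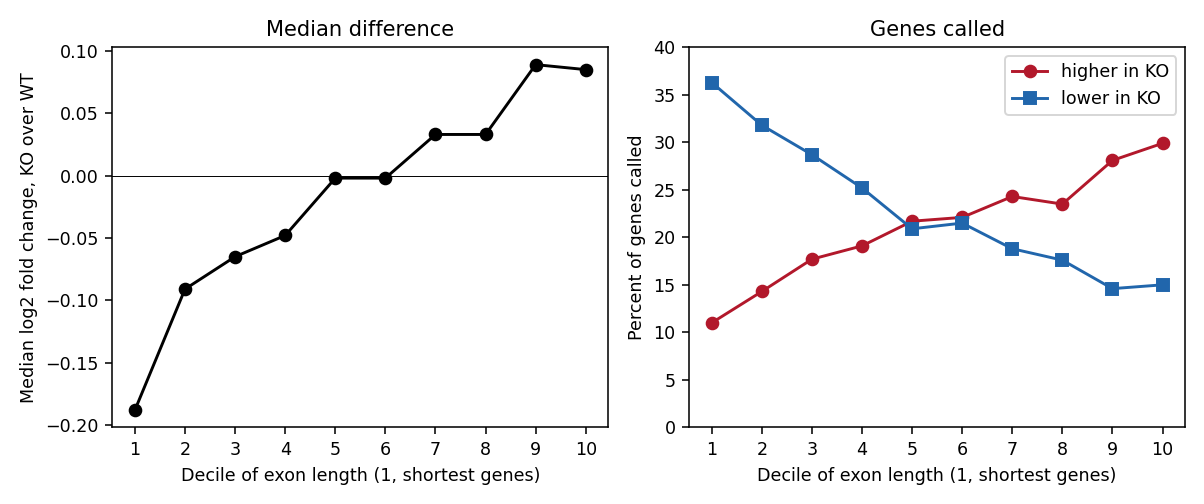
Median log2 fold change, KO over WT (left panel), and percent of genes called higher (circles) or lower (squares) in KO (right panel), by decile of exon length, for 9986 genes of at least 5 CPM. Short genes were more often lower and long genes more often higher in KO.

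The most abundant transcripts included some of antigen presentation and iron storage, beside genes of other functions. Levels of different genes are compared per length, as TPM scaled by the same TMM factors, a scale on which the median gene lay 0.17 higher in KO on the log2 scale, so changes are read from the fit on counts instead. Cd74, the invariant chain of MHC class II, led with 23577 TPM in WT and 27851 TPM in KO. Fth1, the heavy chain of ferritin, followed with 18106 and 15463 TPM. The class II genes H2-Eb1 (13205 and 14532 TPM), H2-Ab1 (12190.4 and 12754 TPM) and H2-Aa (7628 and 7980.1 TPM) were also among the first 12. Class II genes barely moved on the count scale. Cd74 was called higher with a log2 fold change of only 0.07, H2-Ab1 and H2-Aa were called lower at -0.10 and -0.10, and H2-Eb1 was not called at -0.03. Removal of the length trend turned the sign of H2-Ab1 to 0.01, of H2-Eb1 to 0.13 and of the complement gene C1qb to 0.07 from -0.10.

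Ferritin heavy chain and saposin changed in opposite directions at these high levels. Fth1 read 7249, 7122 and 7213 CPM in the WT libraries and 5494, 5467 and 5452 CPM in the KO libraries (log2 fold change -0.40, SE 0.0148, adjusted p = 1.14e-36). Every KO library lay below every WT library. Ftl1, which encodes the light chain of the same ferritin shell, was at 1211 CPM in WT and 1183 CPM in KO and was not called (adjusted p = 0.247, and higher by 0.10 on the log2 scale with the length trend removed). Psap, the precursor of the saposins that help to degrade sphingolipids in lysosomes, read 7470.0, 7525 and 7451 CPM in the WT libraries and 8995, 9070.2 and 8877 CPM in the KO libraries (log2 fold change 0.26, SE 0.0141, adjusted p = 1.90e-27). Ppt1, a lysosomal thioesterase that removes palmitate from proteins and was chosen after its values were seen, read 375, 372 and 354 CPM in the WT libraries and 909.6, 895 and 938 CPM in the KO libraries (log2 fold change 1.31, SE 0.028, adjusted p = 1.37e-52). Among mitochondrial transcripts, which encode subunits of the respiratory chain, mt-Nd1 rose from 967 ± 11.3 to 1318 ± 27.8 CPM and mt-Cytb rose from 1245 ± 5.14 to 1429 ± 46.6 CPM. Tyrobp, the signalling adaptor DAP12 of many myeloid receptors, rose from 669.9 ± 18.6 to 763 ± 7.53 CPM.

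Many of the abundant transcripts that fell belong to the protein synthesis machinery. Messages of ribosomal proteins and of some translation factors start with a run of pyrimidines, the 5′ terminal oligopyrimidine (TOP) motif, through which mTOR and the RNA-binding protein LARP1 are known to control their translation and stability. Of 76 tested ribosomal protein genes 73 were lower and none was higher, with a median log2 fold change of -0.54. Beyond ribosomal proteins, a set of 26 other genes known for such a start held 17 lower genes and 1 higher gene (median -0.36). This set was written after the ribosomal values had been seen. It includes hosts of small nucleolar RNAs, which are spliced and then decayed, and 6 of the 7 of these were lower (median -0.51). Both groups are short (median exon length 1657 and 2566 bases, 3707 over all genes), and with the length trend removed 72 of the 76 and 16 of the 26 were lower, with medians of -0.39 and -0.27.

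The start regions of 5 of these genes show the motif and are printed because the genes that carry it moved in unlike ways. Each stretch holds 15 bases before and 15 bases from the annotated start, from RefSeq on GRCm38.p6. Capitals mark the pyrimidine run, a C followed by at least 5 more C or T, that begins within 5 bases of the start on the strand of the gene.
Gas5: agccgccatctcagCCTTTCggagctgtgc
Snhg12: ggccgttctcagtCCTTTCTCgcttcatcc
Fau: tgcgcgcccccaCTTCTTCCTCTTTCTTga
Eef1a1: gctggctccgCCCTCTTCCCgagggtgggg
Nap1l1: ggcgggctctcgggtCTTTTTTagcgccat
The stretches lie at chr1:161035151-161035180 (+), chr4:132308663-132308692 (+), chr19:6057932-6057961 (+), chr9:78481710-78481739 (-) and chr10:111473212-111473241 (+). Such a run stood at the start of 22 of the 56 ribosomal protein genes with a promoter entry, 7 of 18 of the other set, 11.7% of 9405 tested genes and 9.1% of all 32851 promoters in the table.

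Both noncoding hosts and coding genes of that set fell. Gas5, a host of small nucleolar RNAs, read 178, 182 and 184 CPM in the WT libraries and 119.7, 109 and 104 CPM in the KO libraries (log2 fold change -0.70, SE 0.0514, adjusted p = 4.78e-20). Zfas1, another host and an antisense neighbour of Znfx1, read 87.9, 86.3 and 85.5 CPM in the WT libraries and 43.5, 39.2 and 47.7 CPM in the KO libraries (log2 fold change -0.99, SE 0.0776, adjusted p = 1.08e-18). All 3 KO libraries were below all WT libraries for both. Nothing in the sources says that counting used strand, so reads of Zfas1 and Znfx1 cannot be told apart where these overlap. Snhg12, also a host, fell from 27.8 to 15.9 CPM. Among the coding genes Fau, which encodes ribosomal protein S30 fused to a ubiquitin-like protein, fell from 1379.8 to 978 CPM, and Eef1a1, the elongation factor that brings aminoacyl-tRNA to the ribosome, fell from 7446 to 5741 CPM. Tpt1, a tumour protein under translational control, fell from 2528 to 1937 CPM. The drop did not extend to all of them. Eef2, which moves the ribosome along, did not pass the test at 2964 CPM in WT and 2881 CPM in KO (adjusted p = 0.0594), and Nap1l1, a histone chaperone with the run shown above, rose from 177 to 230.3 CPM (log2 fold change 0.38).

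Among genes of at least 20 CPM in the higher genotype, the largest rises were in genes of unlike functions. Slc15a2, a peptide transporter that also carries bacterial muropeptides, read 9.69, 10.3 and 8.05 CPM in the WT libraries and 48.7, 51.2 and 44.3 CPM in the KO libraries (log2 fold change 2.35, SE 0.125, adjusted p = 1.26e-27). Cox4i2, an isoform of a cytochrome c oxidase subunit, read 11, 4.30 and 7.61 CPM in the WT libraries and 32.7, 36.8 and 30.8 CPM in the KO libraries (log2 fold change 2.06, SE 0.158, adjusted p = 6.42e-19). Itga8, an integrin alpha chain, read 5.63, 3.13 and 4.98 CPM in the WT libraries and 25.3, 19.3 and 23.3 CPM in the KO libraries (log2 fold change 2.28, SE 0.182, adjusted p = 2.94e-18). In each case the lowest KO library lay well above the highest WT library. Loxl3, an extracellular lysyl oxidase, rose from 12.3 to 42 CPM, Myh10, a nonmuscle myosin heavy chain, rose from 9.62 to 38.1 CPM, and Maged1, a member of the MAGE family, rose from 5.17 to 25.3 CPM. Xcr1, a chemokine receptor that marks type 1 conventional dendritic cells (cDC1), rose from 14 to 43.8 CPM, and Chil3, a chitinase-like protein used here as a monocyte marker, from 7.0 to 23 CPM. The summed dendritic cell markers were lower in KO, so that Xcr1 moved against the sum of its list, and 6 of 10 monocyte markers were higher. In macrophage-like single cells, described below, Xcr1 was also higher in KO, at 1.42 CPM in WT and 12 CPM in KO. Chil3 was lower there, at 43.7 CPM in WT and 22.3 CPM in KO. The part of dendritic cells and monocytes in the bulk values was not tested.

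**Figure D3:**
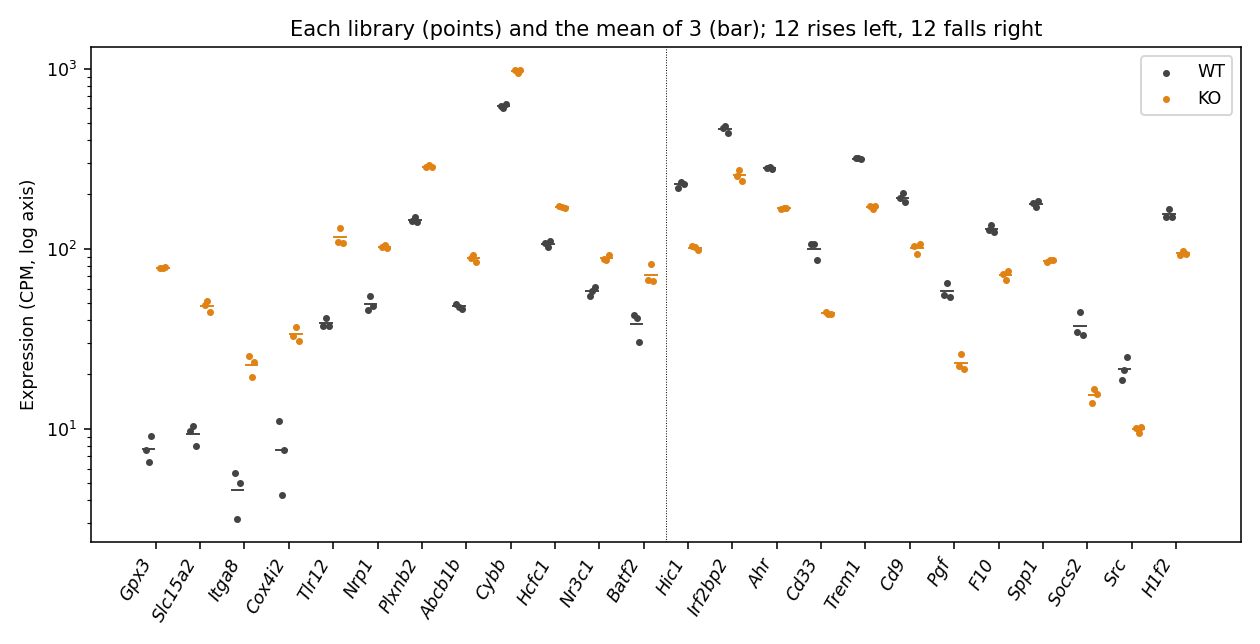
Expression of 24 genes in each library (points, CPM on a log axis) with the mean of 3 libraries (bar), WT in dark grey and KO in orange, 12 genes that rose on the left and 12 that fell on the right. The genes shown were chosen from called genes whose WT and KO libraries do not overlap.

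The largest falls, apart from Lyz2, included genes of matrix and cell fusion. Ltbp3, which binds and stores latent TGF-beta in the matrix, read 25.1, 27.6 and 34.7 CPM in the WT libraries and 8.10, 10.0 and 6.39 CPM in the KO libraries (log2 fold change -1.83, SE 0.156, adjusted p = 7.17e-17). Dcstamp, a membrane protein needed for the fusion of macrophages and osteoclasts, read 29.1, 30.4 and 27.8 CPM in the WT libraries and 8.43, 9.85 and 9.66 CPM in the KO libraries (log2 fold change -1.66, SE 0.144, adjusted p = 1.47e-16). WT and KO libraries were far apart for both. Rai14, an actin-binding protein, fell from 40.5 to 12.9 CPM, the PX domain gene Pxdc1 from 107 to 22.8 CPM and the gelatinase Mmp9 from 52.2 to 9.46 CPM. Gzmc, a granzyme of killer lymphocytes, fell from 66.1 to 16 CPM, while 16 of the 20 T and NK cell markers were higher.

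Another 7 genes that changed beyond 2-fold at 100 CPM or more in the higher genotype were, like Ppt1, chosen after their values were seen. They include Ckb, the brain-type creatine kinase, which rose from 169 ± 9.72 to 352 ± 9.30 CPM, Cadm1, an adhesion molecule of the immunoglobulin family that also marks cDC1, which rose from 61.7 ± 1.98 to 158 ± 7.66 CPM, and Slamf7, a SLAM family receptor, which rose from 67.8 ± 0.459 to 148 ± 2.30 CPM. Cyfip2, a subunit of the WAVE complex that nucleates branched actin, rose from 68.9 ± 2.20 to 139 ± 2.19 CPM. On the lower side, Jup, the junction protein plakoglobin, fell from 224 ± 7.44 to 79.1 ± 5.90 CPM, the secreted serine protease Htra3 fell from 124 ± 7.81 to 41.7 ± 5.83 CPM, and the phospholipid-binding annexin Anxa3 fell from 111 ± 5.33 to 36.3 ± 2.70 CPM.

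Transcription factors shifted in both directions. Of 261 tested members of 11 factor lists, which do not hold the C/EBP, KLF and EGR families, 58 were called higher and 65 lower (47.1%, 37.6% of all genes), and 4 in each direction passed the test against 1.5-fold. Outside these lists, Cebpb, a C/EBP factor of inflammatory myeloid genes, read 712, 773 and 719 CPM in the WT libraries and 148, 172 and 134 CPM in the KO libraries (log2 fold change -2.28, SE 0.0983, adjusted p = 4.92e-05), and Klf2 and Klf4, chosen after their values were seen, fell from 709 to 395 CPM and from 1688 to 1033 CPM. The fall of Cebpb was far smaller in macrophage-like single cells, as given below. Hic1, a BTB zinc finger repressor, read 218, 235 and 228 CPM in the WT libraries and 103, 102 and 97.9 CPM in the KO libraries (log2 fold change -1.16, SE 0.0479, adjusted p = 3.11e-34). Irf2bp2, a corepressor of IRF2 rather than a factor of its own, read 465, 478 and 441 CPM in the WT libraries and 254, 274 and 237 CPM in the KO libraries (log2 fold change -0.86, SE 0.0354, adjusted p = 4.13e-34). Ahr, the receptor that senses tryptophan metabolites and aromatic pollutants, read 279, 284 and 276 CPM in the WT libraries and 165, 167 and 169 CPM in the KO libraries (log2 fold change -0.74, SE 0.0398, adjusted p = 1.96e-27). For all 3 genes the KO libraries formed a separate and lower group. Arnt, the partner through which AHR binds DNA, did not pass the test at 81.3 CPM in WT and 81.9 CPM in KO (adjusted p = 0.914).

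Among basic helix-loop-helix factors 11 of 40 were called lower and 3 higher, and among BTB zinc finger factors 9 of 39 lower and 3 higher, against 18.9% and 18.7% of all genes. Mnt, a repressor that competes with MYC for MAX, fell from 184 to 119 CPM, Hes1, a target of Notch, from 56.3 to 35.8 CPM, and Bhlhe40, a repressor tied to cytokine control and the clock, from 934 to 680.2 CPM. Max itself rose from 81.8 to 109 CPM, and Myc was not called at 91.9 CPM in WT and 96 CPM in KO (adjusted p = 0.468). Epas1, the hypoxia-inducible factor HIF-2 alpha, rose from 5.49 to 18.6 CPM. Epas1 was at least 4-fold higher in T and NK cells than in macrophages and monocytes of the same study's single cells.

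Single factors with known roles in macrophages moved in both directions. Nfe2l2, the antioxidant regulator, fell from 704 ± 19.2 to 549.9 ± 15.6 CPM, and Irf4, a factor of alternative activation and of dendritic cells, from 74.4 to 44.8 CPM. Batf2, an interferon-inducible partner of IRF1, read 42.8, 41.3 and 30.4 CPM in the WT libraries and 66.8, 81.9 and 65.9 CPM in the KO libraries (log2 fold change 0.88, SE 0.0919, adjusted p = 3.81e-13). Its KO libraries were all above the WT libraries. Irf5, which drives inflammatory cytokines, rose from 331 to 421 CPM. Of 18 tested STAT and IRF genes, cofactors included, 5 were higher and 4 lower.

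Nuclear receptors split evenly, with 7 of 23 higher and 7 lower, though 4 were higher without WT replicate 1, without KO replicate 1 or without KO replicate 3. Nr3c1, the glucocorticoid receptor and a gene skewed to T and NK cells, rose from 58 ± 3.62 to 88.7 ± 2.61 CPM and Pparg, the receptor that directs lipid uptake in macrophages, rose from 13.7 to 21.6 CPM. Nr2f6 fell from 17.7 to 10.1 CPM and Esrra, a regulator of mitochondrial genes, from 58.6 to 37 CPM. Srf, which controls actin genes, fell from 151 to 99.9 CPM, Smad1, a mediator of BMP signals, from 24.9 to 15.9 CPM, and Smurf1, a ubiquitin ligase for SMAD1, from 44.7 to 27.4 CPM. Smad3 and Smad5 rose from 29 to 41.9 CPM and from 9.75 to 14.6 CPM. Of the 20 SMAD, TEAD and MEF2 genes 7 were lower and 3 higher (18.9% and 18.7% of all genes). The list of RUNX, GATA, T-box, Ikaros, REL and related factors had 13 of 27 higher and 4 lower (63.0% called, and 37.6% of all genes). It includes lymphocyte factors such as Eomes (from 4.29 to 8.92 CPM), Tbx21 (from 10.6 to 18.4 CPM) and Ikzf3 (from 7.38 to 14.2 CPM), which rose beside the T and NK cell markers. Without genes skewed to T and NK cells in the single-cell data 9 of 17 were higher and 4 lower.

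Receptors changed in both directions. Of 355 tested genes in 14 lists of receptors and receptor adaptors 109 were higher and 87 lower (55.2%, and 37.6% of all genes), and 25 higher and 13 lower genes passed the test against 1.5-fold. Without the 37 genes skewed to T and NK cells, 93 were higher and 86 lower of 318. The next paragraphs take them by what they bind.

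Toll-like receptors and their adaptors were mostly higher, with 15 of 27 called higher and 3 lower (18.7% and 18.9% of all genes) and a median log2 fold change of 0.20. None of the 27 was skewed to T and NK cells. Tlr12, which pairs with TLR11 to sense profilin of Toxoplasma, read 37.1, 41.1 and 37.2 CPM in the WT libraries and 109, 130.1 and 107 CPM in the KO libraries (log2 fold change 1.58, SE 0.0769, adjusted p = 6.65e-30). Tlr11 rose from 6.02 to 17.8 CPM and Tlr9, the receptor for unmethylated CpG DNA, rose from 51.2 ± 3.04 to 89.9 ± 4.43 CPM. All these receptors signal from endosomes, and Unc93b1, the chaperone that takes them there, rose slightly from 790.1 to 847 CPM. Cd180, a relative of TLR4, read 75.4, 80.2 and 76.4 CPM in the WT libraries and 141, 139 and 141 CPM in the KO libraries (log2 fold change 0.86, SE 0.0584, adjusted p = 9.31e-22), and its secreted partner Ly86 rose from 332 to 385 CPM. KO libraries lay above WT libraries for Tlr12 and Cd180 alike. The lipopolysaccharide receptor did not share this pattern. Tlr4 was not called at 40.5 CPM in WT and 39.1 CPM in KO (adjusted p = 0.658), and Cd14, which hands lipopolysaccharide to it, fell from 1993 ± 39 to 1357 ± 22.5 CPM.

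Lectins and sialic acid receptors moved in both directions. Cd33, a member of the Siglec family, read 106, 106 and 86.4 CPM in the WT libraries and 44.5, 43.5 and 43.3 CPM in the KO libraries (log2 fold change -1.19, SE 0.0755, adjusted p = 3.07e-23). All KO libraries were below the lowest WT library. Siglec1, the sialoadhesin of resident macrophages, rose from 149.9 to 213 CPM. Clec4n, the dectin-2 receptor for fungal mannans, fell from 403 ± 3.22 to 246 ± 6.11 CPM, and Clec4e, the mincle receptor for mycobacterial glycolipid, fell from 134 to 87.3 CPM. Clec9a, a cDC1 receptor for exposed actin, rose from 20.7 to 47.1 CPM together with Xcr1, whereas the migratory dendritic cell markers Ccr7 and Fscn1 fell from 213 to 82.9 CPM and from 149.5 to 64 CPM. In macrophage-like single cells, described below, Clec9a was at 3.26 CPM in WT and 15.7 CPM in KO, and Cadm1 at 42.2 and 112 CPM. Of 28 C-type lectin receptors 7 were higher and 8 lower.

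Trem1, Trem2 and the CD200 pair were lower, and Treml4, a TREM-like receptor that is also in the monocyte marker list, rose from 68.9 to 108 CPM. Trem1, which boosts inflammatory responses through DAP12, read 317, 317 and 313 CPM in the WT libraries and 172, 167 and 172 CPM in the KO libraries (log2 fold change -0.89, SE 0.0383, adjusted p = 5.09e-33). Trem2, a lipid sensor that uses the same adaptor, fell from 28.3 to 15.8 CPM, and the inhibitory Cd200r1 fell from 42.1 to 21.9 CPM while its ligand Cd200 fell from 8.98 to 2.63 CPM. Trem1 libraries of the genotypes were clearly apart. Fcrls, a macrophage Fc receptor-like protein, fell from 15 to 4.95 CPM. Among Fc receptors for IgG, Fcgr1 and Fcgr4, which activate, rose from 253 to 328 CPM and from 322 to 408 CPM, and the inhibitory Fcgr2b and the activating Fcgr3 fell from 1173 to 943 CPM and from 1111 to 889 CPM. In macrophage-like single cells, described below, Fcgr2b and Fcgr3 were higher in KO, as were Fcgr1 and Fcgr4. Fcgr2b was at 570 CPM in WT and 622 CPM in KO there, and Fcgr3 at 401 and 461 CPM. In the list of paired immunoglobulin-like receptors 12 of 38 were higher and 13 lower.

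Cytokine receptors were split as well, 14 of 43 higher and 11 lower (58.1% called, and 37.6% of all genes). Il1r2, the decoy receptor for interleukin-1, read 793, 836 and 781 CPM in the WT libraries and 489, 478 and 495 CPM in the KO libraries (log2 fold change -0.72, SE 0.0272, adjusted p = 1.63e-36). Each KO value was below each WT value. The ligand Il1a fell from 115 to 31.3 CPM and the receptor antagonist Il1rn from 771 to 418 CPM, whereas the signalling receptor Il1r1 was low at 1.37 CPM in WT and 2.34 CPM in KO and not called (adjusted p = 0.202). Il1rl2, the receptor for interleukin-36, fell from 18.1 to 9.41 CPM. Il18r1 (from 3.06 to 9.13 CPM), Il2rb (from 52.2 to 110.0 CPM) and Il12rb2 (from 5.47 to 9.66 CPM), receptors of T and NK cells, rose beside the markers of those cells. Without genes skewed to T and NK cells, 10 of 34 were higher and 11 lower. Csf1r, the receptor that keeps macrophages alive, rose from 961 ± 31.4 to 1297 ± 11.2 CPM while its ligand Csf1 fell from 91.1 ± 3.32 to 56 ± 1.27 CPM.

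Guidance and growth factor receptors held some of the larger rises. Plxnb2, a plexin receptor for class 4 semaphorins, read 143, 149 and 139.9 CPM in the WT libraries and 283, 290.2 and 282 CPM in the KO libraries (log2 fold change 0.98, SE 0.0419, adjusted p = 2.36e-33). Nrp1, a coreceptor for semaphorins and VEGF, read 45.3, 54.6 and 48.2 CPM in the WT libraries and 102, 104 and 101 CPM in the KO libraries (log2 fold change 1.06, SE 0.0727, adjusted p = 1.73e-21), while Nrp2 fell from 36.7 to 23.9 CPM. KO libraries were at about 2-fold the WT level for Plxnb2 and Nrp1. Nrp2 was higher in KO in macrophage-like single cells, at 21.4 CPM in WT and 36.3 CPM in KO. Among the semaphorins themselves, Sema4b fell from 58.3 to 41.1 CPM. In the whole list 4 of 17 were higher and 5 lower. The VEGF receptors Flt1, Kdr and Flt4 rose from 9.03 to 14.2 CPM, 5.93 to 13 CPM and 1.68 to 5.48 CPM. These receptors are known from endothelium, but macrophage-like single cells, described below, also held Flt1 and Kdr RNA. Flt1 was at 14.6 CPM in WT and 25.1 CPM in KO there, and Kdr at 2.17 and 4.05 CPM. Markers of endothelium and fibroblasts, a list that includes Kdr and rests mostly on Pecam1, summed to 78.7 to 87.2 CPM in WT and 103 to 117 CPM in KO. The part of such cells was not tested. Igf1r fell from 16.4 to 8.98 CPM while its ligand Igf1 rose from a low level, from 1.27 to 4.75 CPM. Mertk, which recognises dying cells, fell from 75.4 to 54.6 CPM, and Pros1, which bridges it to them, rose from 10.4 to 16.7 CPM.

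Integrins leaned upward, 10 of 20 higher against 3 lower (18.7% and 18.9% of all genes), with a median log2 fold change of 0.22. Without genes skewed to T and NK cells 9 of 15 were higher. Besides Itga8, Itgal rose from 305 ± 13.3 to 441 ± 3.98 CPM and the shared beta chains Itgb2 and Itgb1 from 623 to 699 CPM and from 258 to 319 CPM, while Itgam, the alpha chain of complement receptor 3, fell from 139 ± 7.60 to 91.9 ± 2.15 CPM. Cd9, a tetraspanin that organises membrane proteins, read 191, 203 and 182 CPM in the WT libraries and 104, 93.4 and 106 CPM in the KO libraries (log2 fold change -0.92, SE 0.0521, adjusted p = 4.13e-26). Gpr183, the receptor for oxysterols that position immune cells, fell from 73.2 to 35.3 CPM, and the lysosomal membrane protein Gpr137b from 52.1 to 25 CPM. KO and WT libraries were apart for both.

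Secreted factors that act on vessels, clotting and matrix were among those that fell in bulk RNA. Of 232 tested genes for secreted products and their enzymes 65 were higher and 58 lower (53.0%, and 37.6% of all genes), and 11 higher and 14 lower genes passed the test against 1.5-fold. Without genes skewed to T and NK cells, 52 of 205 were higher and 53 lower. Pgf, placental growth factor and a ligand of FLT1, read 55.3, 64.4 and 53.9 CPM in the WT libraries and 22.3, 25.9 and 21.6 CPM in the KO libraries (log2 fold change -1.32, SE 0.0996, adjusted p = 1.99e-19). Vegfa, the main growth factor of vessels, fell from 674 ± 25.7 to 575 ± 13.3 CPM. Spp1, osteopontin, read 178, 170.0 and 184 CPM in the WT libraries and 84.2, 86.1 and 85.9 CPM in the KO libraries (log2 fold change -1.06, SE 0.053, adjusted p = 4.73e-29). The genotypes did not overlap for Pgf and Spp1. Pdgfb fell from 129 to 93.1 CPM. Gdf15, a stress-induced member of the TGF-beta family, rose from 30.1 to 49.5 CPM and Gdf3 from 14.4 to 23.6 CPM, and Inhba, the activin A subunit, fell from 18.7 to 10.0 CPM. Of 40 growth factors 9 were higher and 12 lower (52.5% called, and 37.6% of all genes).

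Of 22 clotting genes 8 were lower and 5 higher (59.1% called, and 37.6% of all genes), and 3 of 20 were higher without genes skewed to T and NK cells. F10, coagulation factor X, fell from 129 ± 6.47 to 71.5 ± 3.93 CPM. F7, factor VII, fell from 23.7 to 12.3 CPM, while F3, tissue factor, was low at 5.76 CPM in WT and 6.34 CPM in KO and not called (adjusted p = 0.694). Spint1, a membrane-anchored inhibitor of serine proteases such as matriptase, fell from 410.2 ± 18.3 to 228 ± 6.57 CPM. For F10 and Spint1 no KO library reached the WT range. In macrophage-like single cells, described below, F10 and F7 were instead higher in KO. There F10 was at 131 CPM in WT and 152 CPM in KO, and F7 at 27.2 and 34.8 CPM. Spint1 was lower there, at 135 CPM in WT and 106 CPM in KO. The thrombin receptor F2r, skewed to T and NK cells, rose from 2.76 to 9.63 CPM. In the extracellular matrix list, 11 of 43 were higher and 9 lower, and with a filter of 5 CPM in 3 libraries 3 of 19 were higher. Efemp2, a fibulin needed for elastic fibres, fell from 15.9 to 6.15 CPM, alongside Ltbp3, and Emilin1 rose from 43.7 to 60.6 CPM.

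Cytokine genes outside the interleukin-1 family also changed. Il12b, the p40 chain shared by interleukin-12 and interleukin-23, fell from 24 to 11.5 CPM, Ebi3, a chain of interleukin-27, fell from 38 to 23.8 CPM, and the other chain Il27 rose from 6.91 to 12.9 CPM. The summed dendritic cell markers were also lower, as given above, and their part in the falls of Il12b and Ebi3 was not tested. Ifng rose from 8.35 to 19.8 CPM beside the T and NK cell markers. Of the complement genes, C4b and C4a rose from 107 to 159 CPM and from 30.4 to 44.1 CPM. These are near-identical copies, and the sources do not say how reads that fit both were counted, so their separate values are uncertain. Cfp, properdin, fell from 440.1 to 333 CPM. Selenop, a selenium carrier, rose from 189.7 to 274 CPM. The sheddase Adam17, which releases TNF and growth factors, rose from 178 ± 9.66 to 259.7 ± 7.28 CPM. Hpgd, which degrades prostaglandins, rose from 1.84 to 11.5 CPM, and Ptgs1, the constitutive cyclooxygenase, fell from 48.5 to 28.9 CPM.

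**Figure D4:**
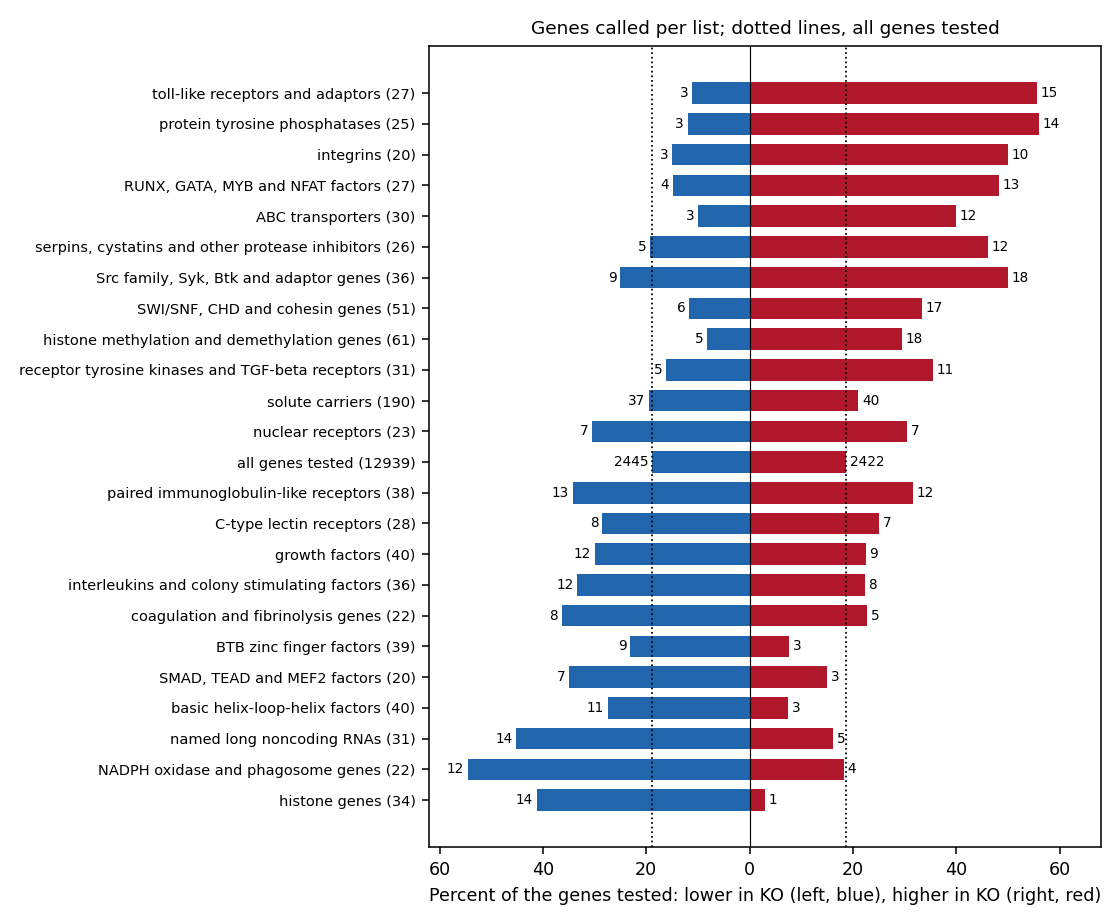
Percent of the tested genes of each list shown that were lower (left, blue) or higher (right, red) in KO, with the number of genes at each bar and the number tested in parentheses. The lists are a selection from the 71, and some lists near or below the background share are left out. Dotted lines mark the shares over all 12939 genes, 18.9% lower and 18.7% higher. Lists near the top leaned to higher values and those near the bottom to lower ones.

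Transport genes changed near the background rate, with 72 of 301 higher and 53 lower (41.5%). ABC transporters leaned upward, 12 of 30 higher and 3 lower (18.7% and 18.9% of all genes), and 9 and 3 of 27 without genes skewed to T and NK cells. Abcb1b, a multidrug exporter, read 49.4, 47.6 and 46.1 CPM in the WT libraries and 88.2, 92.6 and 84.6 CPM in the KO libraries (log2 fold change 0.89, SE 0.075, adjusted p = 4.95e-17), and Abcc5, an exporter of nucleotide analogues, rose from 35.5 to 61.9 CPM. Of 27 iron handling genes 7 were higher and 4 lower (40.7%). Slc40a1, the iron exporter ferroportin, rose from 5.26 ± 1.03 to 12.6 ± 1.48 CPM, Steap3, an endosomal ferrireductase, from 5.29 to 12.6 CPM, and Tfrc, the transferrin receptor, from 31.9 to 46.9 CPM. Fth1 is among the 4 that fell. Slc46a1, a folate carrier, rose from 3.36 to 7.86 CPM. The cystine importer Slc7a11 fell from 91.2 to 58.6 CPM, and the sodium-proton exchanger Slc9a4 from 7.49 to 1.88 CPM. All of these were chosen from genes whose libraries did not overlap between genotypes, as was so for 46.5% of all genes.

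In signalling, protein tyrosine phosphatases rose more often than they fell, 14 of 25 against 3 (18.7% and 18.9% of all genes), with a median log2 fold change of 0.20. Ptpn6, the SHP-1 phosphatase that dampens myeloid receptors, rose from 311 to 381 CPM, and Ptpn22, skewed to T and NK cells, from 46.4 to 65.8 CPM. Ptpn12 was an exception and fell from 143 ± 7.24 to 90.1 ± 1.79 CPM. Without the 4 genes skewed to T and NK cells 11 of 21 were higher, and with a filter of 5 CPM in 3 libraries 9 were. Src, the founding member of its kinase family, read 18.6, 21.1 and 24.9 CPM in the WT libraries and 10.1, 9.51 and 10.2 CPM in the KO libraries (log2 fold change -1.10, SE 0.156, adjusted p = 1.38e-08), and Socs2, a feedback inhibitor of growth hormone signals, read 34.3, 44.6 and 33.2 CPM in the WT libraries and 14, 16.6 and 15.5 CPM in the KO libraries (log2 fold change -1.30, SE 0.125, adjusted p = 1.47e-14). Both were lower in each KO library. The T cell kinase Lck rose from 12.9 to 28.4 CPM, beside the T cell markers. Pik3r1, the regulatory subunit of PI3K, fell from 168 to 112 CPM, Dusp5, a nuclear ERK phosphatase, from 899.5 to 625 CPM, and Rgs1, a brake on chemokine receptors, from 1877 to 1363 CPM. Rgs16 rose from 29 to 74.4 CPM and is skewed to T and NK cells.

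Chromatin genes were called at the background rate, 41 of 196 higher and 33 lower (37.8%), and the test against 1.5-fold called none higher and 2 lower. Hcfc1, which encodes the OGT substrate HCF-1, read 107, 102 and 111 CPM in the WT libraries and 173, 169.7 and 168 CPM in the KO libraries (log2 fold change 0.68, SE 0.0517, adjusted p = 3.74e-19). Chd4, the remodeller of the NuRD complex, read 163, 172 and 163 CPM in the WT libraries and 258, 249 and 248 CPM in the KO libraries (log2 fold change 0.60, SE 0.0419, adjusted p = 3.23e-21). KO values exceeded WT values in every library for these genes. The H3K9 demethylase Kdm4b fell from 54.1 ± 5.96 to 31.8 ± 1.87 CPM, and the H3K9 methyltransferase Suv39h1 rose from 15.6 to 23.7 CPM. Histone methylation and demethylation genes were higher in 18 and lower in 5 of 61, which is 37.7% called beside 37.6% of all genes. With the length trend removed 9 were higher, and without KO replicate 1, the deepest library, 11 were. Of the enzymes that deal with O-GlcNAc itself, chosen after their values were seen, Oga fell from 92.3 ± 6.26 to 70.2 ± 6.51 CPM and Gfpt1, which makes the precursor sugar phosphate, rose from 89.9 to 110.3 CPM.

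Of 34 histone genes 14 were called lower and 1 higher (18.9% and 18.7% of all genes), with a median log2 fold change of -0.48. Most replication-dependent histone messages lack a poly(A) tail, and the labels do not say whether libraries were made from poly(A) RNA. The linker histone H1f2 read 150.3, 167 and 149 CPM in the WT libraries and 91.7, 96.7 and 93.5 CPM in the KO libraries (log2 fold change -0.73, SE 0.055, adjusted p = 2.28e-19), with all KO libraries lower. H1f0, a linker histone of non-dividing cells whose message is polyadenylated, fell from 78.3 to 55.3 CPM. With the length trend removed, 7 of the 34 were lower.

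Glycosylation genes outside O-GlcNAc stayed near the background, 15 of 89 higher and 14 lower (32.6%). St6galnac4, a sialyltransferase of O-glycans, rose from 62.8 ± 1.10 to 97.8 ± 1.29 CPM, and Fut4, a fucosyltransferase that makes Lewis X, from 11.8 to 20.2 CPM. Gcnt2, a branching enzyme, fell from 219 ± 6.22 to 154 ± 8.76 CPM, St6gal1, which caps N-glycans with sialic acid, from 30.1 to 21.2 CPM, and Neu1, the lysosomal sialidase, from 136 to 104 CPM. Lgals3bp, a secreted ligand of galectin-3, rose from 334 to 468 CPM. Among long noncoding RNAs, 14 of 31 were lower and 5 higher (18.9% and 18.7% of all genes). The lower ones included Gas5, Zfas1 and 6 Snhg genes, and Malat1, a nuclear RNA, rose from 484 to 614 CPM.

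Genes of the phagocyte oxidase and phagosome were called lower in 12 of 22 cases and higher in 4 (18.9% and 18.7% of all genes). Their median log2 fold change was -0.14, and none was called lower in the test against 1.5-fold. The membrane subunit of the oxidase went the other way. Cybb, the catalytic gp91phox, read 619, 604 and 634 CPM in the WT libraries and 984, 948 and 977 CPM in the KO libraries (log2 fold change 0.65, SE 0.0255, adjusted p = 1.84e-35), with KO libraries far above WT libraries. Its membrane partner Cyba was at 621 CPM in WT and 595 CPM in KO and not called (adjusted p = 0.078), and rose by 0.18 on the log2 scale with the length trend removed. The cytosolic subunit Ncf4 fell from 249 to 199 CPM, and Rac2, the small GTPase that completes the complex, fell from 386 to 340.5 CPM.

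In other programmes of the cell, 27 of 80 actin and motility genes were higher and 23 lower (62.5%, and 37.6% of all genes). The tropomyosins Tpm1 and Tpm4 fell from 32.8 to 23 CPM and from 357 to 301 CPM. Of inflammasome genes and nucleotide sensors 12 of 38 were higher and 9 lower, among them Nlrc4, a partner of sensors for flagellin, which rose from 11.8 to 19.6 CPM. Polyamine enzymes Odc1 and Paox were lower. Odc1, which makes putrescine, fell from 1359 ± 11.2 to 1084 ± 7.20 CPM, and Paox, which oxidises acetylated polyamines, from 18.7 to 9.86 CPM. Asns, the asparagine synthetase induced by amino acid stress, fell from 13.5 to 8.18 CPM, and Phgdh, the first enzyme of serine synthesis, which is skewed to T and NK cells, rose from 11.3 to 18.2 CPM.

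Single cells of the same study give each gene's level in cells grouped as macrophage-like, from 1 matrix of CD45-positive cells per genotype with no replicate and no test. The labels list a pair of single-cell samples per genotype, and whether a matrix pools both is not given in the sources used here. Free RNA was not estimated, and macrophage-like cells held T cell transcripts such as Cd3d at 13.9 CPM (12.4 to 15.6) in WT and 18.1 CPM (16.4 to 19.9) in KO and Cd3e at 7.80 CPM (6.65 to 9.08) in WT and 13.4 CPM (11.9 to 15) in KO, with the exact Poisson 95% interval in parentheses. After filtering, 2653 WT and 2631 KO cells were macrophage-like by their markers. They came from 4 clusters with unlike shares, such as 1233 WT and 952 KO cells in the cluster led by Ccl17 and Mmp12, and 111 and 141 in the one that has Cox4i2 among its leading genes. Among all filtered cells, 23 cell barcodes occurred in both matrices. Macrophage-like cells of KO had the higher level for 146 of 172 measured genes that rose beyond 1.5-fold in bulk, and the lower level for 129 of 164 that fell. Over all 10203 genes with enough UMIs, 6437 were higher in KO. The median log2 ratio was 0.39 for the rises, -0.21 for the falls and 0.06 for all genes. Both assays share the mice's genotypes but the labels do not say whether they share animals.

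Named genes showed both concordance and its limits, given as CPM of the UMIs of macrophage-like cells with exact Poisson 95% intervals that cover counting error only. Cox4i2 was at 7.09 CPM (6.0 to 8.32) in WT and 41.2 CPM (38.6 to 44) in KO, Ppt1 at 81.8 CPM (78 to 85.8) in WT and 198 CPM (192 to 204) in KO, and Plxnb2 at 25.9 CPM (23.8 to 28.2) in WT and 41.7 CPM (39 to 44.4) in KO, all higher in KO as in bulk. Hic1 was at 35.9 CPM (33.4 to 38.6) in WT and 17.9 CPM (16.2 to 19.7) in KO, Jup at 44.7 CPM (41.9 to 47.6) in WT and 18.6 CPM (16.9 to 20.5) in KO, and Ahr at 192 CPM (186 to 198) in WT and 129 CPM (124 to 133) in KO, all lower as in bulk. All 6 genes thus had the bulk direction in macrophage-like cells, whose clusters differ in share between the genotypes, and the part of that in these values was not tested. Other genes did not. Slc15a2 was at 17.8 CPM (16.1 to 19.7) in WT and 17 CPM (15.4 to 18.8) in KO, Pgf at 30.9 CPM (28.5 to 33.3) in WT and 37.3 CPM (34.8 to 39.9) in KO, and Cd9 at 408 CPM (399 to 416) in WT and 433 CPM (424 to 441) in KO. The intervals of Slc15a2 overlap, and Pgf and Cd9 were higher in KO, against a fall in bulk. Inhba, at 62.1 CPM (58.8 to 65.5) in WT and 146 CPM (141 to 151) in KO, was also higher in KO macrophage-like cells and lower in bulk. F10, F7, Mmp9, Slc7a11, Fcgr2b, Fcgr3 and Nrp2 likewise fell in bulk but were higher in KO macrophage-like cells, with intervals apart. Mmp9 was at 5.58 CPM in WT and 8.06 CPM in KO, and Slc7a11 at 103 and 135 CPM. Chil3 and Malat1 rose in bulk but were lower there, Malat1 at 16800 CPM in WT and 15300 CPM in KO. Intervals of Vegfa and Il1a, both lower in bulk, overlapped. Cebpb had the bulk direction but not its size, at 3330 CPM (3310 to 3350) in WT and 2960 CPM (2940 to 2990) in KO. Its log2 ratio was -0.17 in macrophage-like cells and -2.28 in bulk.

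**Figure D5:**
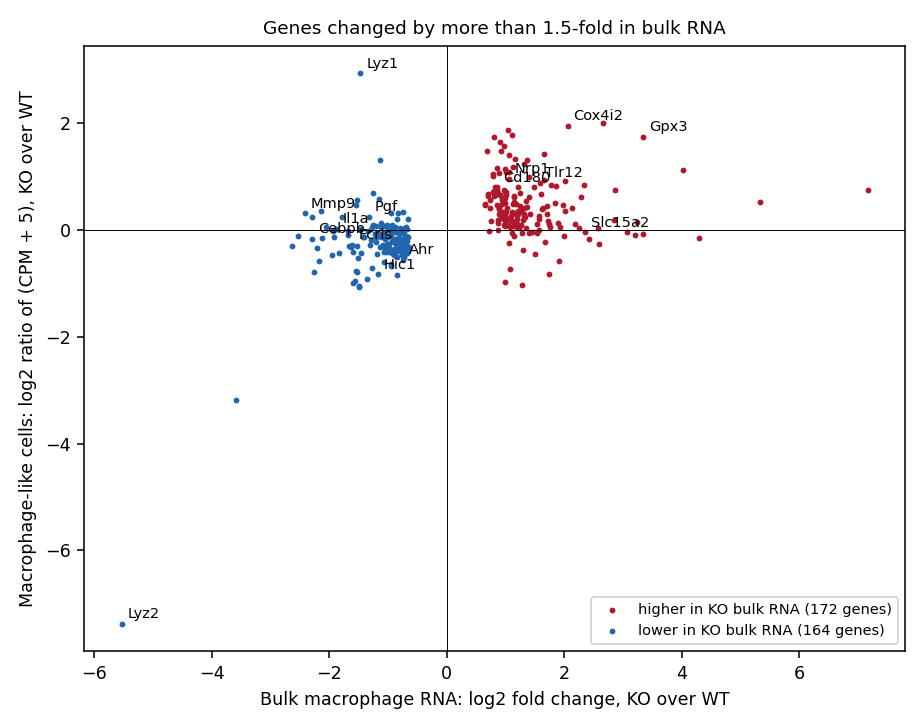
Log2 ratio of (CPM + 5), KO over WT, in macrophage-like single cells (y axis, 1 matrix per genotype) against the log2 fold change in bulk macrophage RNA (x axis), for 172 genes higher (red) and 164 genes lower (blue) by more than 1.5-fold in bulk RNA. Most red points lie above 0 and most blue points below it, with Lyz1 an exception at the top left.

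Genes typical of T and NK cells were concentrated among the bulk rises. Of 11602 tested genes with at least 50 UMIs, 652 (5.62%) were at least 4-fold higher in T and NK cells than in macrophage- and monocyte-like cells. They made up 71 of 248 genes that rose beyond 1.5-fold (28.6%) and 7 of 193 that fell (3.63%). Genes skewed to macrophage- and monocyte-like cells were 46 (18.5%) of the rises, 54 (28.0%) of the falls and 958 (8.26%) of all. Without the 652 genes, 4608 genes were called and 424 of them changed beyond 1.5-fold. The part of lymphocyte RNA in the other rises was not tested.

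Called genes made up between 34.4% and 41.0% of the tested genes of each chromosome. Within 10 Mb of Lyz2 42.9% of 70 genes were called, and 40.2% on the rest of chromosome 10. Within 10 Mb of Ogt 43.2% of 74 genes were called, 25 higher and 7 lower, and 32.4% on the rest of the X chromosome. Peaks of EGR2, deposited as 1 list per genotype, lay within 1 kb of the start of few genes. They stood at 1.12% of tested genes in the WT list, 1.03% of the higher and 1.31% of the lower genes. Of the genes named here, Efemp2 had such a peak in the WT list, Bhlhe40 and Kdm4b in the KO list, and C4a in both.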

How the data were processed

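Bulk RNA of tumour-associated macrophages was measured in 3 WT and 3 KO libraries. The deposited tables hold raw counts per gene, made with featureCounts 2.0.6 on GENCODE vM10 per the file headers, and on mm10 per the submitters' processing notes. Low counts were even in 77.8% to 84.1% of cases per library, as when both reads of a pair are counted. With counts divided by 2 to stand for read pairs, 4895 of 11679 tested genes were called and 459 changed beyond 1.5-fold. The file headers give gene length but no symbol, so symbols came from the single-cell feature table for 59.6% of 48440 identifiers and from a table of gene names for others. Counts were tested with edgeR 4.0.16 (R 4.3.3; filterByExpr, TMM, robust quasi-likelihood F-test, glmTreat for 1.5-fold), with Benjamini-Hochberg adjustment over 12939 genes. On simulated counts, 76% of 50 genes changed 1.5-fold and 96% of 50 changed 2-fold were called, with 8 of 12481 unchanged genes. The changed genes were drawn from those with a mean of at least 5 CPM and were far fewer than the genes called in the data. These rates therefore do not cover genes of lower level, nor changes as widespread as those in the data.

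Single-cell UMI counts were deposited as 1 matrix per genotype (Cell Ranger 8.0.1, per the matrix header). Cells were required to have 500 genes, 1000 UMIs and no more than 10% of UMIs from mitochondria. Scrublet marked 4.91% of WT and 3.16% of KO cells as doublets, which were left out. Cells were clustered and named from markers. The authors' deposited EGR2 peaks carry a peak score, used only to describe peaks.

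The 71 gene lists and the genes described were chosen with earlier results of these data known. From the lists, 15 members matched only by name were left out after values were seen. Genes were named by rank of level or change among called genes without overlap, overall and within lists, with ligands, receptors and markers beside them. Named outside that rule, after values were seen, were Arnt, Myc, Ftl1, Eef2, Fau, Tpt1, Nap1l1, Tlr4, Tlr9, Unc93b1, Itgal, Itgb1, Itgb2, Pdgfb, Cyba, Ncf4, Rac2, Tpm4, Odc1, Oga, Gfpt1, Klf2, Klf4, Ppt1 and the 7 genes of large change said to be so chosen. Replicate numbers did not pair the samples.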

Additional observations from a re-analysis of the deposited data

How the results depend on the processing

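Among 16 other settings, the number of called genes (4867) stayed within 1.5 times, and between 3995 and 4618 were called when a library was left out in turn. The number changed beyond 1.5-fold (502) was 255 with the DESeq2 test (131 higher and 124 lower), 352 with limma-voom (172 and 180), 359 with the filter of 5 CPM in 3 libraries (180 and 179) and 369 to 487 with a library left out. Same-numbered libraries did not deviate together, and a fit with the replicate number as a block called 4696 genes and 450 beyond 1.5-fold. EGR2 peaks within 10 kb of the start stood at 7.72% of higher and 9.16% of lower genes for the WT list and at 6.23% and 7.77% for the KO list. Of the 204 genes named here, 194 kept direction and call under the 15 of these settings run for single genes, except that Igf1 and Il1r1 were not tested with the filter of 5 CPM. Most of the 204 were chosen because they were called without overlap in the main fit, which favours a high count. With the length trend removed, the called C1qb, H2-Ab1 and H2-Aa were at log2 fold changes of 0.071, 0.008 and -0.008, and the uncalled H2-Eb1, Ftl1, Cyba and Arnt at 0.13, 0.10, 0.18 and -0.052. With a library left out in turn, Arnt ranged from -0.044 to 0.070 and the uncalled Tlr4 from -0.18 to 0.042. The uncalled Eef2 was called lower with the DESeq2 test, with limma-voom and without WT replicate 3, H2-Eb1 with limma-voom, and Cyba without WT replicate 1, and the uncalled Col3a1 was called higher without WT or without KO replicate 1. The length correction and the fits without T and NK cell genes were chosen after seeing the data. The cause of these changes was not tested.
Genes of low count limit what could be detected, since 15.2% of genes below 5 CPM were called.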
